A study of Mus musculus with 288 samples.

Results

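Lymphocytes carry surface proteins that serve as standard markers of their type, and 9 genes of this kind were examined: Cd79a, Cd79b and Ms4a1 for B cells, Cd3d, Cd3e and Cd3g for T cells, Cd4 and Cd8a for T cell subsets, and Nkg7 for NK and cytotoxic T cells. The genes were chosen by name, with earlier results of these data known, and all 9 were found among the 35904 genes of the expression tables. The study asked how short-term intermittent hypoxia (IH), a mouse model of the repeated oxygen drops of sleep apnea, alters the transcriptome of 6 tissues around the clock. C57BL/6J wild-type mice of 8 weeks of age, male according to the methods, breathed either room air throughout (normoxia) or air that cycled between 21% and 8% O2 in the light phase (IH), for 7 days. Both groups then spent 2 days in constant darkness in room air, so the tissues of the IH group were collected after the exposure had ended. Lung, heart, liver, kidney, muscle and cerebellum were collected every 3 hours at 8 time points labelled 1:30 to 22:30, with 3 libraries per time point. How these hours relate to the former light phase is not given in the sources used here, and times below are the labelled hours. This gives 24 normoxia and 24 IH libraries in each tissue, 288 in all. The labels do not say whether libraries of the same number came from the same mouse, and p-values here measure the spread between libraries. According to the methods, several organs were taken from 3 mice at each time point of each condition. The fits that compare tissues nevertheless took all libraries as independent, so their p-values ignore mice shared between tissues.

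An antigen receptor consists of chains that bind antigen and chains that signal. In B cells the bound immunoglobulin is paired with a heterodimer of CD79A and CD79B, which carry the signaling motifs, while CD20, the product of Ms4a1, spans the membrane of mature B cells and is lost as they become plasma cells. In T cells the receptor sits in a complex with the CD3 gamma, delta and epsilon chains (Cd3g, Cd3d and Cd3e). CD4 and CD8 alpha are co-receptors that bind MHC class II and class I molecules and separate helper from cytotoxic T cells, and both are present together on immature T cells in the thymus. NKG7 is a granule protein of NK cells and cytotoxic T cells. The lung holds many lymphocytes within its vessels and walls, and numbers of circulating lymphocytes are known to follow the time of day. In a whole tissue, fewer cells of a type and less RNA per cell cannot be told apart.

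Expression is given in TPM, that is, transcripts relative to a fixed total per library, corrected for transcript length. In GRCm38, Cd79a (ENSMUSG00000003379.7) lies on the plus strand of chr7 at 24897381 to 24902197. Nkg7 (ENSMUSG00000004612.9) is on the same chromosome at 43437073 to 43438249, also on the plus strand. The 3 Cd3 genes form a cluster of 40056 bases on chr9, where Cd3g and Cd3d point away from each other across 1354 bases. Cd79b is on chr11, Ms4a1 on chr19, and Cd4 and Cd8a are both on chr6. Ms4a1 and Cd3e each overlap an annotated antisense gene. RefSeq promoter sequences (250 bases before to 50 after the start, GRCm38.p6) were matched for 6 of the 9 genes: Cd79a, Cd3d, Cd3e, Cd3g, Cd8a and Nkg7. The promoters of Cd79a (chr7:24897247-24897546, plus strand) and Nkg7 (chr7:43436888-43437187, plus strand) are shown because these are the matched genes with the largest change in the lung. Capitals mark matches, on either strand, to the ETS core AGGAAG and the RUNX site TGTGGT.
Cd79a: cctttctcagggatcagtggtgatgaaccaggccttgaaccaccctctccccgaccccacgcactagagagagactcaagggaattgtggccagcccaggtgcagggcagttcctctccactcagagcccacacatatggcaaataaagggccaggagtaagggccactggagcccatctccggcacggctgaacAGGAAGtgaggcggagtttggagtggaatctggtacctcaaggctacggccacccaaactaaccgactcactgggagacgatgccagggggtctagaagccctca
Nkg7: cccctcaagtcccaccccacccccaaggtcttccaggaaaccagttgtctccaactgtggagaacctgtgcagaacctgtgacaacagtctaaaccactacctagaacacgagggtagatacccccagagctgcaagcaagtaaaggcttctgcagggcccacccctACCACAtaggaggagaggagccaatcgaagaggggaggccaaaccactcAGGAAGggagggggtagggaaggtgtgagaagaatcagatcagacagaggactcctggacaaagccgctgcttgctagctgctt
The Cd79a promoter held 1 ETS core and the Nkg7 promoter held 1 ETS core and 1 RUNX site. Each of the Cd3d and Cd3e promoters held 2 ETS cores, and neither motif was matched in those of Cd3g and Cd8a. Among all 32851 mouse promoters of the table, 35.35% held an ETS core and 16.76% a RUNX site. The canonical E-box CACGTG, the site of the core clock factors, occurred in 0 of the 6 promoters and in 7.15% of all promoters.

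Several libraries held transcripts of a tissue other than their own. The levels and changes that rest on libraries with thymocyte or heart transcripts are given below with and without them. In the heart, 6 of 48 libraries (2 normoxia, 4 IH) contained transcripts of thymocytes, with more than 5 TPM of Dntt, the polymerase that adds bases to antigen receptor genes in developing lymphocytes. In the cerebellum, 10 libraries (7 normoxia, 3 IH) had more than 300 TPM of Myh6, the cardiac myosin heavy chain. Other cerebellum libraries held Myh6 below this cut, for example 219 TPM in the normoxia library at 1:30, replicate 2. Leaving out the 10, called below the libraries with heart transcripts, therefore does not remove all heart transcripts. The liver library at 13:30 after IH, replicate 2, was closer to the heart profile (Pearson's r of 0.93 across genes) than to that of the liver (0.77), with Myh6 at 1507 TPM and Alb at 541 TPM. It was the only 1 of 288 libraries that lay closer to another tissue. Lung transcripts also occurred in the heart, where the lung epithelium gene Scgb1a1 averaged 188 ± 502 TPM in normoxia and 39.6 ± 139 TPM after IH (SD). In the lung its mean over both treatments was 109500 TPM. Heart levels without the libraries that held it are not given, and its part in them was not tested. In the lung, 8 IH libraries and 0 normoxia libraries had more than 26000 genes detected (any TPM above 0), and the median was 24788 genes after IH and 22690 in normoxia. In the heart the number of genes detected ran the other way and the groups did not overlap. It ranged from 22988 to 28331 in normoxia and from 20316 to 22793 after IH. The part of this in the differences between lung and heart given below was not tested. TPM keep no read depth, which is therefore unknown here.

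The lung held the highest levels of the B cell and NK markers. In normoxia Cd79b reached 57.7 ± 17.8 TPM and Cd79a 52.0 ± 16.7 TPM (SD, n = 24), followed by Nkg7 (15.5 ± 4.55 TPM), Ms4a1 (13.0 ± 4.53 TPM) and Cd3g (10.8 ± 2.28 TPM). The remaining genes were lower there: Cd3d at 7.01 ± 1.96, Cd3e at 5.55 ± 1.41, Cd8a at 3.59 ± 1.06 and Cd4 at 3.21 ± 0.818 TPM. None of the 24 lung libraries was at 0 for any of the 9 genes. The heart came next for the B cell genes, with Cd79b at 3.67 ± 3.27, Cd79a at 3.04 ± 2.14 and Ms4a1 at 0.925 ± 0.748 TPM. The lung exceeded the heart 7.43-fold for Cd79a, 7.31-fold for Cd79b, 4.98-fold for Ms4a1 and 5.69-fold for Nkg7 on the log2(scaled TPM + 0.5) scale (adjusted p between 7.69e-41 and 7.8e-37, limma), a contrast in which 79.2% of 18080 genes passed. In TPM as deposited these log2 differences were 4.03, 4.02, 3.32 and 3.51 in place of 2.89, 2.87, 2.32 and 2.51, and the median over all genes moved by 1.01 in the same direction.

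**Figure D1:**
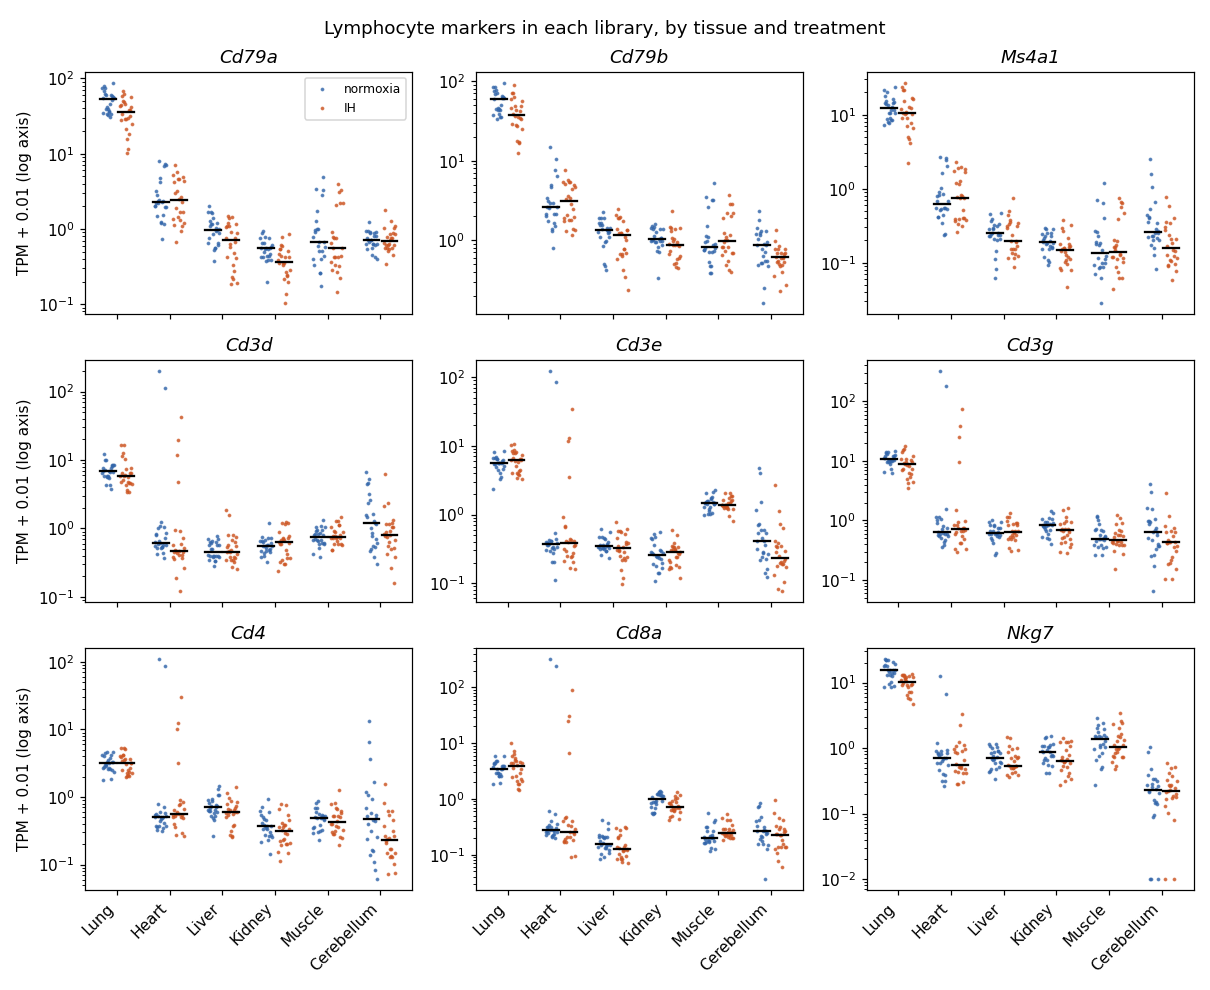
TPM + 0.01 of the 9 genes on a log axis in each of the 288 libraries, by tissue, with normoxia in blue, IH in orange and the median of each group of 24 as a black line. Lung medians lie above those of the other tissues for all 9 genes, and 6 heart libraries rise far above the rest in the panels of the T cell genes.

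For the T cell genes the heart mean exceeded that of the lung, but the median did not. Cd8a averaged 23.9 ± 80.9 TPM in the normoxia heart with a median of 0.271 TPM, against 3.59 TPM and a median of 3.50 TPM in the lung. The same held for Cd3g, with a heart mean of 21.7 and median of 0.620 TPM, and for Cd3d, with a mean of 13.6 and median of 0.611 TPM. The heart means rested on the libraries with thymocyte transcripts. The normoxia library at 7:30, replicate 3, held 322 TPM of Cd8a, 323 TPM of Cd3g, 110 TPM of Cd4 and 402 TPM of Dntt. The normoxia library at 19:30, replicate 3, held 245 TPM of Cd8a, 183 TPM of Cd3g, 85.8 TPM of Cd4 and 254 TPM of Dntt. Among the IH libraries, Cd8a stood at 88.2 TPM at 16:30, replicate 2, and at 25.2, 6.55 and 31.2 TPM in the 3 libraries of 10:30. In the other 42 heart libraries Cd8a ranged from 0.0823 to 0.605 TPM, Cd3e from 0.1003 to 0.911 TPM and Dntt from 0 to 0.391 TPM. No other heart library came near these 6, in which the summed level of the 8 thymocyte genes ran from 30.1 to 855 TPM.

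**Figure D2:**
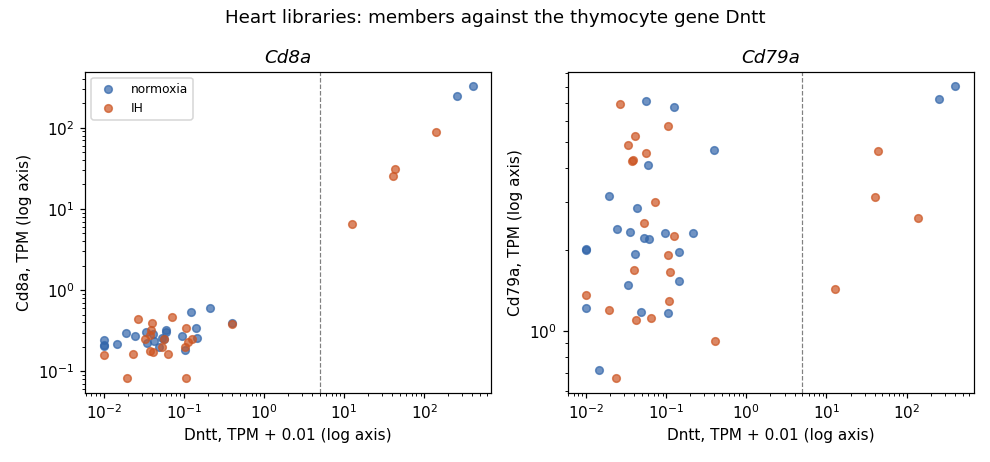
Cd8a (left) and Cd79a (right) in TPM against Dntt in TPM + 0.01 in the 48 heart libraries, both axes logarithmic, with normoxia in blue and IH in orange; the dashed line marks 5 TPM of Dntt. The 6 libraries to its right hold 6.55 to 322 TPM of Cd8a, while their Cd79a, from 1.43 to 8.05 TPM, lies within the range of the other 42 in all but the 2 normoxia libraries.

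Without the 6 libraries, the heart levels in normoxia fell below 1 TPM for all of the T cell genes, with means of 0.677 TPM for Cd3d, 0.716 TPM for Cd3g, 0.334 TPM for Cd3e, 0.474 TPM for Cd4 and 0.292 TPM for Cd8a. Nkg7 then averaged 0.654 TPM in place of 1.41 TPM. Cd79a remained at 2.62 TPM and Cd79b at 2.86 TPM. On the log2 scale the lung was above the heart for Cd3d, Cd3e, Cd3g and Cd8a both with the 6 libraries (log2 differences of 1.10, 1.37, 1.59 and 0.81) and without them (1.64, 1.92, 2.19 and 1.48). With the 6 libraries kept, the Cd8a difference did not pass without replicate 1 (0.48, adjusted p = 0.276) or without replicate 2 (0.46, 0.291). For Cd4 the difference of 0.48 (SE 0.246, adjusted p = 0.0647) did not pass with all libraries and was 1.00 without them (adjusted p = 2.35e-10). With all libraries it passed in TPM as deposited (1.35, adjusted p = 1.54e-06) and with a pseudocount of 0.1 (0.77, 0.0157).

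Outside the lung and heart, group means in normoxia were 1.83 TPM (Cd3d in the cerebellum) or less. Without the cerebellum libraries with Myh6 above 300 TPM, that mean was 0.878 TPM and the highest was Cd3e in muscle. Liver means in normoxia ran from 0.173 TPM (Cd8a) to 1.30 TPM (Cd79b), and kidney means from 0.184 TPM (Ms4a1) to 1.07 TPM (Cd79b). Muscle ranged from 0.221 TPM (Cd8a) to 1.47 TPM (Cd3e). Cd3e was the highest of the 9 genes in muscle, where it was 1.47 ± 0.349 TPM, while Cd3d and Cd3g, which encode partners of the same complex, were at 0.767 and 0.568 TPM. Cd8a, at 0.976 ± 0.281 TPM in the kidney, was higher there than in the liver, muscle and cerebellum, whose means lay between 0.173 and 0.301 TPM (adjusted p between 0.000834 and 0.00397). Cd79a and Cd79b in muscle were uneven, with medians of 0.656 and 0.818 TPM and a highest library (19:30, replicate 3) of 4.91 and 5.21 TPM. In the normoxia cerebellum, Cd4 had a median of 0.464 TPM but was 13.2 TPM at 7:30, replicate 1, where Myh6 was at 404 TPM. It was also 6.51 TPM at 7:30, replicate 2 (Myh6 429 TPM), and 3.65 TPM at 10:30, replicate 1 (Myh6 393 TPM). The normoxia library with 661 TPM of Myh6 (1:30, replicate 1) held only 1.18 TPM of Cd4, and the source of the high Cd4 was not tested. Without the libraries with Myh6 above 300 TPM, mean Cd4 in the normoxia cerebellum was 0.422 TPM in place of 1.40 TPM.

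By mean TPM in normoxia, Cd79a was ordered lung, heart, muscle, liver, cerebellum and kidney, and Cd79b the same but with the last 2 exchanged. Ms4a1 ran from lung to heart, cerebellum, liver, muscle and kidney, but the place of the cerebellum rested on its libraries with heart transcripts: without them its mean was 0.241 TPM in place of 0.458 TPM, below that of the liver at 0.250 TPM. In both Cd79 genes the muscle mean lay above that of the liver through a few high libraries, whereas on the log2 scale the liver was the higher (adjusted p = 0.000949 for Cd79a and 0.00049 for Cd79b). In TPM as deposited neither difference passed (0.09, adjusted p = 0.607, and 0.12, 0.503). Over the 9 genes, 33 of the 135 comparisons of a pair of tissues did not pass, where a large share of all 18080 genes passed for each pair of tissues. That share was 83.8%, 81.7%, 80.7% and 90% for the lung against the liver, kidney, muscle and cerebellum. It was 81.6%, 83.4%, 69% and 86.8% for the heart against the same 4. Liver against kidney, muscle and cerebellum gave 76%, 79.4% and 89.2%, kidney against muscle and cerebellum 78.7% and 87.6%, and muscle against cerebellum 87.3%. Without the heart libraries with thymocyte transcripts and the cerebellum libraries with heart transcripts, 15 of the 135 did not pass, with 23 calls gained and 5 lost. The share of all genes that passed in that fit is not given here. Neighbours in the order that were not separated in either fit were cerebellum and kidney for Cd79a (adjusted p = 0.794 with all libraries and 0.883 without these) and muscle and kidney for Ms4a1 (0.533 and 0.463). Heart and muscle did not differ past the threshold for Nkg7 with all libraries (0.283) and did without these (0.00171). The same was seen for the lower tissues of the T cell genes: cerebellum and muscle for Cd3d (0.318 and 0.0315) and Cd8a (0.914 and 0.0322), cerebellum and kidney for Cd3g (0.367 and 3.1e-07), and muscle and kidney for Cd4 (0.403 and 0.0109). Without these libraries the lung had the highest mean for all 9 genes. The second place then went to the heart for the 3 B cell genes, to muscle for Cd3e and Nkg7, to the kidney for Cd3g and Cd8a, to the liver for Cd4 and to the cerebellum for Cd3d.

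To determine whether IH altered the mean level over the day, all 24 IH libraries of a tissue were compared with all 24 normoxia libraries. In the lung, 6 of 9 genes were lower after IH at an adjusted p of 0.05 or less and 0 were higher. In this tissue 68.4% of the 15426 genes tested passed, 35% being lower and 33.5% higher. Past the 1.5-fold threshold of the study, on scaled TPM, 3 of the 9 genes were lower, Cd79a, Cd79b and Nkg7, against 2.64% of all genes. The median log2 change of the 9 genes was -0.47 and that of all genes tested -0.02.

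Nkg7, the NK and cytotoxic granule gene, was the most clearly separated. In normoxia the libraries lay at 8.58 (lowest), 15.5 (median) and 22.9 TPM (highest), and after IH at 4.63, 10.1 and 13.52 TPM. All 24 IH libraries lay below the normoxia median and 16 of the 24 normoxia libraries lay above the highest IH library. The difference was -0.84 on the log2 scale (SE 0.118, adjusted p = 2.81e-08), a level 1.79-fold lower after IH. The IH mean was the lower at 8 of 8 time points.

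The signaling chains of the B cell receptor fell together. Cd79a lay at 30.9, 52.9 and 87.2 TPM (lowest, median and highest) in normoxia and at 10.3, 36.1 and 67.2 TPM after IH. Its log2 change was -0.83 (SE 0.164, adjusted p = 2.01e-05), or 1.77-fold lower. Cd79b lay at 33.7, 59.8 and 95.2 TPM in normoxia and at 12.4, 37.7 and 89.9 TPM after IH, with a log2 change of -0.81 (SE 0.163, adjusted p = 2.4e-05). The groups overlapped for both genes, although 10 IH libraries for Cd79a and 9 for Cd79b were below every normoxia library. The mean of Cd79a was lower after IH at 8 of 8 time points and that of Cd79b at 7 of 8. The gap was widest in relative terms at 13:30, where the 3 normoxia libraries held 32.8, 37.0 and 35.6 TPM of Cd79a and the 3 IH libraries 21.2, 15.6 and 10.3 TPM.

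Ms4a1, the third B cell gene, changed less. Its libraries were at 7.25, 12.3 and 23.7 TPM in normoxia and at 2.22, 10.6 and 26.9 TPM after IH, and these ranges overlapped widely. The log2 change of -0.47 (SE 0.177, adjusted p = 0.0176) passed the test but not the 1.5-fold threshold. It was -0.26 (adjusted p = 0.239) without replicate 3. Within each library, the ratio of Cd79a to Ms4a1 had a median of 3.93 in normoxia and 3.19 after IH.

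The CD3 chains differed among themselves. Cd3g had a median of 10.6 TPM in normoxia (6.35 to 14.8) and 8.76 TPM after IH (3.49 to 17.9), and its log2 change was -0.56 (SE 0.129, adjusted p = 0.000173). Cd3d went from a median of 6.80 TPM (3.76 to 12.1) to 5.79 TPM (3.44 to 16.8), with a log2 change of -0.32 (SE 0.144, adjusted p = 0.0479). Cd3e had medians of 5.67 TPM (2.36 to 8.49) and 6.23 TPM (3.32 to 10.6), and its log2 change of -0.10 (SE 0.108, adjusted p = 0.428) did not pass. The Cd3d call was the weakest: mean TPM was 7.01 in normoxia and 7.02 after IH, and without replicate 3 the log2 change was -0.03 (adjusted p = 0.899). Neither co-receptor passed. Cd4 had medians of 3.13 and 3.16 TPM and a log2 change of -0.20 (SE 0.094, adjusted p = 0.0512), and Cd8a had medians of 3.50 and 3.80 TPM and a log2 change of -0.19 (SE 0.145, adjusted p = 0.241). After IH the Cd8a libraries were spread more widely, from 1.41 to 10.1 TPM, than in normoxia, from 1.83 to 5.86 TPM.

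**Figure D3:**
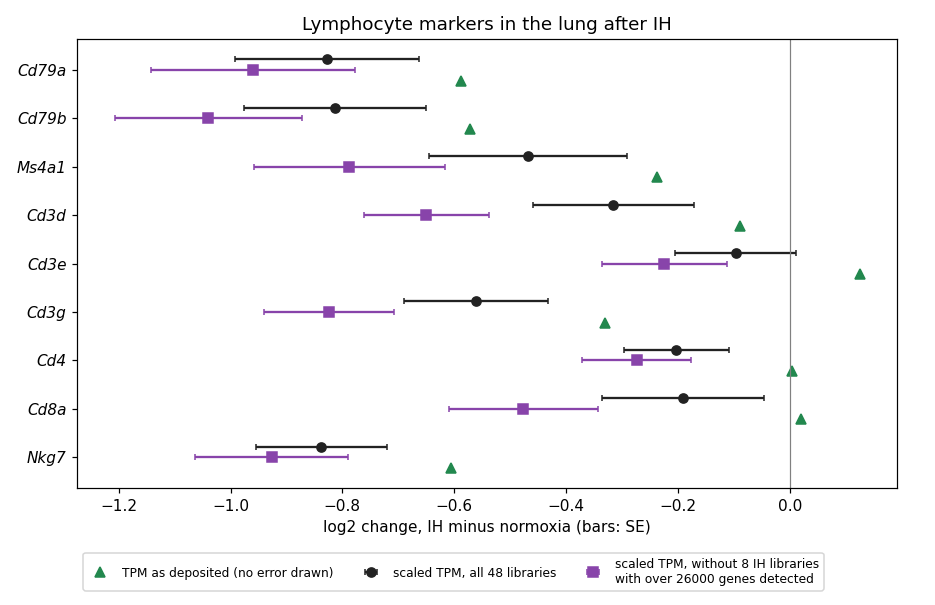
Log2 change of the 9 genes in the lung (IH minus normoxia) for scaled TPM with all 48 libraries (circles, bars are SE), for scaled TPM without the 8 IH libraries with over 26000 genes detected (squares, bars are SE) and for TPM as deposited (triangles). Cd79a, Cd79b and Nkg7 lie at -0.57 or below in all 3, and Cd3e, Cd4 and Cd8a lie above 0 for TPM as deposited.

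These changes are relative to the scaling. In TPM as deposited the median log2 change of all lung genes was 0.21, with 83.7% of the calls upward in place of 48.9%, and each of the 9 changes shifted upward with it. By adjusted p alone, Cd79a (-0.59, adjusted p = 0.00203), Cd79b (-0.57, 0.00238), Nkg7 (-0.61, 1.71e-05) and Cd3g (-0.33, 0.0255) still passed, whereas Ms4a1 (-0.24, 0.257) and Cd3d (-0.09, 0.59) did not. Cd79b then fell short of the 1.5-fold threshold, and Cd79a lay close to it. For Cd3e (0.12), Cd8a (0.02) and Cd4 (0.00) the sign turned, and none of these 3 passed. The 8 IH libraries with over 26000 genes detected moved with the result in the opposite direction: without them 8 of 9 genes were lower, including Cd8a (-0.48, adjusted p = 0.00212) and Cd4 (-0.27, 0.0136), and Cd3e (-0.22, 0.0783) remained short of the threshold. The share of all genes that were lower in that fit is not given here, so its count is not a result about these genes. A permutation test of mean TPM within time points (two-sided, unadjusted, 100000 resamples) gave p = 2e-05 for Cd79a, 0.00013 for Cd79b, 0.0298 for Cd3g and 1e-05, the smallest it can give, for Nkg7. For the other 5 genes it gave p between 0.148 and 0.993.

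Ratios within a library do not depend on the scaling. In the lung the B cell genes (geometric mean of Cd79a, Cd79b and Ms4a1) exceeded the Cd3 genes (geometric mean of the 3) by a median of 4.39-fold in normoxia and 3.66-fold after IH, with log2 ranges of 1.54 to 2.72 and 0.86 to 2.52. Nkg7 relative to the Cd3 genes had a median of 2.09 in normoxia and 1.44 after IH. The Cd4 to Cd8a ratio was 0.933 in normoxia and 0.924 after IH. The ratio of Cd79a to Cd79b was 0.904 and 0.883. Across the tissues in normoxia, the median ratio of B cell to Cd3 genes was 1.45 in the liver, 1.00 for the kidney and 0.484 for muscle. Cd4 exceeded Cd8a 4.73-fold in the liver, while the kidney had a ratio of 0.371.

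Genes of related lists, also chosen with earlier results of these data known, were examined beside the 9 markers in the lung. There, as above, 35% of all genes tested were lower and 33.5% higher. Of 20 further B cell genes, 9 were lower after IH and 0 higher, with a median log2 change of -0.37. The largest fall was in Fcmr, the IgM receptor, from 22.4 ± 7.32 to 14.2 ± 6.21 TPM (log2 change -0.94, adjusted p = 1.97e-06). Cd22, an inhibitory receptor of B cells, was at 12.8 TPM in normoxia and 18.3 TPM after IH (log2 change 0.19, adjusted p = 0.273) and did not pass. It was picked after its values were seen. Of 22 T cell genes tested, 12 were lower and 2 higher, with a median of -0.22. Cd7 fell from 6.82 to 4.77 TPM (log2 change -0.70, adjusted p = 2.14e-09), and Ubash3a, a phosphatase that restrains T cell receptor signals, rose from 1.37 to 3.57 TPM (0.77, 3.29e-06). Of 15 NK and cytotoxic genes, 10 were lower and 0 higher (median -0.48), with the largest fall in the chemokine gene Ccl5, from 56.8 ± 17.8 to 34.2 ± 9.10 TPM (log2 change -0.94, adjusted p = 1.74e-09).

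Of the 14 homing receptors and ligands, which guide lymphocytes through vessel walls, 11 were lower and 0 higher, led by Icam2 (log2 change -0.60, adjusted p = 2.41e-12). Among 17 genes of antigen receptor signaling, 7 were lower and 1 higher, a share of lower genes near the 35% of all genes: Lyn, a kinase of the B cell receptor, fell (-0.35, adjusted p = 5.73e-08) and Syk, which binds the phosphorylated CD79 chains, rose (0.20, 0.0368). Markers of cells other than lymphocytes moved as well. All 8 lung epithelium genes, 7 of 8 endothelial genes and 8 of 10 erythroid and platelet genes were lower, with medians of -0.62, -0.54 and -0.62, and 4 of 13 myeloid genes were higher and 2 lower. Of 10 genes shared by all leukocytes, 6 were lower and 0 higher (median -0.21), and their summed level ranged from 425 to 1131 TPM in normoxia and from 487 to 961 TPM after IH. The summed level of the lung epithelium genes ranged from 137280 to 265210 TPM in normoxia and from 35341 to 206620 TPM after IH. Of the 6 heart muscle genes, 4 were higher, with sums of 229 to 898 TPM in normoxia and 332 to 1066 TPM after IH. Of the 8 thymocyte genes, 3 were tested, with 2 higher and 1 lower. The part of these changes in the result for the 9 genes was not tested.

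**Figure D4:**
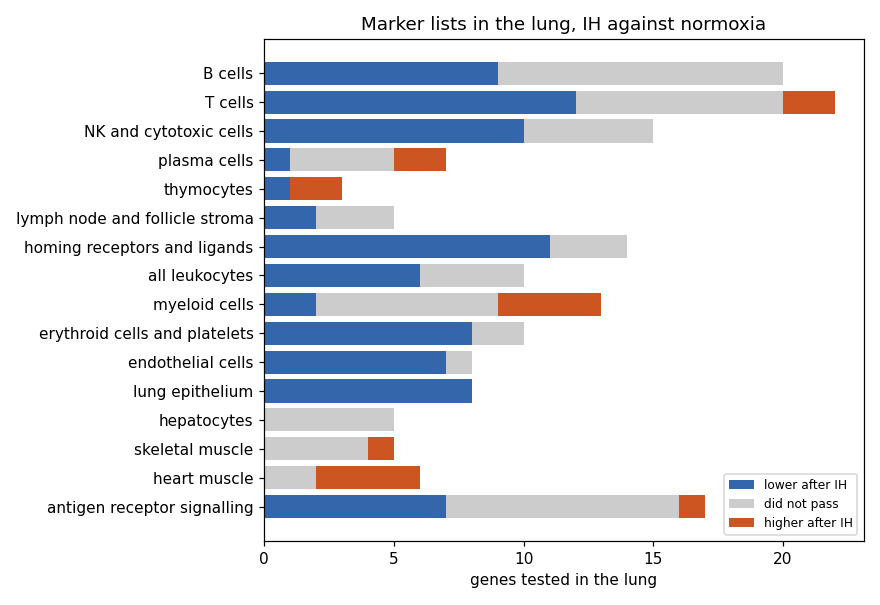
Number of genes of each marker list that were tested in the lung, split into those lower after IH (blue), those that did not pass (grey) and those higher (orange), at an adjusted p of 0.05 or less. All 8 lung epithelium genes and 11 of 14 homing genes are blue, as are 9 of 20 B cell, 12 of 22 T cell and 10 of 15 NK and cytotoxic genes.

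In the other 5 tissues limma called 0 of the genes tested, and 0 of them reached p = 0.05 before adjustment. Genes under a mean of 1 TPM over the 48 libraries were not tested, which left 8 genes in the heart, 4 in muscle (Cd79a, Cd79b, Cd3e and Nkg7) and 1 each in the liver and kidney (Cd79b) and the cerebellum (Cd3d). The share of all genes that passed there was 43.8% in the heart, 25.2% in the liver, 20% in the kidney, 10.9% in muscle and 15.8% in the cerebellum. In the heart, Cd79a was at 3.04 ± 2.14 TPM in normoxia and 2.85 ± 1.79 TPM after IH (log2 change -0.20, SE 0.205, adjusted p = 0.438). Of the 8 genes tested in the heart, 6 reached the mean of 1 TPM through the libraries with thymocyte transcripts, and without these only Cd79a (-0.14, adjusted p = 0.612) and Cd79b (-0.04, 0.884) were tested. The log2 difference of Cd79b was -0.05 (SE 0.155) for liver, -0.11 (SE 0.105) for kidney and -0.04 (SE 0.204) for muscle. Cd3d in the cerebellum was at 1.83 ± 1.75 TPM in normoxia and 1.10 ± 1.20 TPM after IH (-0.41, SE 0.27, adjusted p = 0.3), and it averaged 0.878 and 0.754 TPM without the libraries with heart transcripts. Without the liver library that lay closer to the heart, the change of Cd79b in the liver was -0.11 (SE 0.146).

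The change in the lung was then set against that in each other tissue by an interaction term, which gave 15 comparisons, of which 7 passed. The fall of Cd79b in the lung differed from its change in the heart, liver, kidney and muscle by -0.71, -0.79, -0.73 and -0.80 on the log2 scale. That of Nkg7 differed from the heart by -0.58 and from muscle by -0.72, and that of Cd79a from the heart by -0.65 (SE 0.275, adjusted p = 0.035). Nkg7 reached the mean of 1 TPM in the heart only through the libraries with thymocyte transcripts and was not tested there without them. For Cd79a against muscle the difference of -0.68 did not pass (SE 0.315, adjusted p = 0.0599). The 7 comparisons of Cd3 and co-receptor genes with the heart, muscle and cerebellum gave differences between -0.56 and 0.05, with 0 passing. Of these 7, the 5 of the heart were tested only through the libraries with thymocyte transcripts and had an SE between 0.466 and 0.647, and that of Cd3d in the cerebellum only through the libraries with heart transcripts (SE 0.311), so they do not show whether the changes differed. A large share of all genes also passed in these contrasts (61.8% against the heart, 52.6% liver, 62.9% kidney, 54% muscle, 50.1% cerebellum). In TPM as deposited 1 of the 15 passed, Nkg7 against muscle.

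To examine the time of day, a 24-hour cosine curve was fitted to the libraries of each tissue and treatment. In the normoxia lung the 3 B cell genes were rhythmic at an adjusted p of 0.05 or less, as were 9.49% of all genes, and 0 of the other 6 were. Cd79a had an amplitude of 0.46 on the log2 scale (SE 0.079, adjusted p = 0.00187) with its peak at hour 1.68, and a ratio of peak to trough of 1.88. Its mean was 66.4 TPM at 22:30 and 70.3 TPM at 4:30, and it was lowest at 13:30 (35.2 TPM) and 16:30 (36.9 TPM). Cd79b peaked at hour 1.69 (amplitude 0.43, adjusted p = 0.00423) and Ms4a1 at hour 1.01 (0.36, 0.0405). The B cell genes were thus high from 19:30 to 7:30 and low from 10:30 to 16:30. Cd8a followed a like curve (peak at hour 2.83, amplitude 0.29) without passing (adjusted p = 0.0593), and Cd4 was flat (amplitude 0.06, adjusted p = 0.843).

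After IH, 5 of the 9 genes were rhythmic in the lung, against 4.7% of all genes. Cd79a peaked at hour 3.94 (amplitude 0.67, SE 0.147, adjusted p = 0.0186), Cd79b at hour 4.27 (0.69, 0.0134) and Ms4a1 at hour 3.81 (0.69, 0.0465). The co-receptors passed as well, with peaks at hour 5.58 for Cd4 (0.36, 0.0266) and hour 5.34 for Cd8a (0.61, 0.0159). For Cd8a the 3 libraries held 6.40, 7.22 and 5.012 TPM at 7:30 and 1.81, 1.86 and 1.41 TPM at 16:30, so these time points did not overlap. Nkg7 was not rhythmic in normoxia (adjusted p = 0.15) or after IH (0.377). With any 1 replicate left out, 0 of the 5 genes remained past the threshold after IH, and 0 did without the 8 libraries with over 26000 genes detected, although the amplitude of Cd79a then stayed between 0.60 and 0.78. A rank test (JTK) called 0 of the 9 genes in normoxia and 1, Cd79b, after IH. For these other settings the share of all genes called is not given here, so a stricter test over all genes cannot be told apart.

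**Figure D5:**
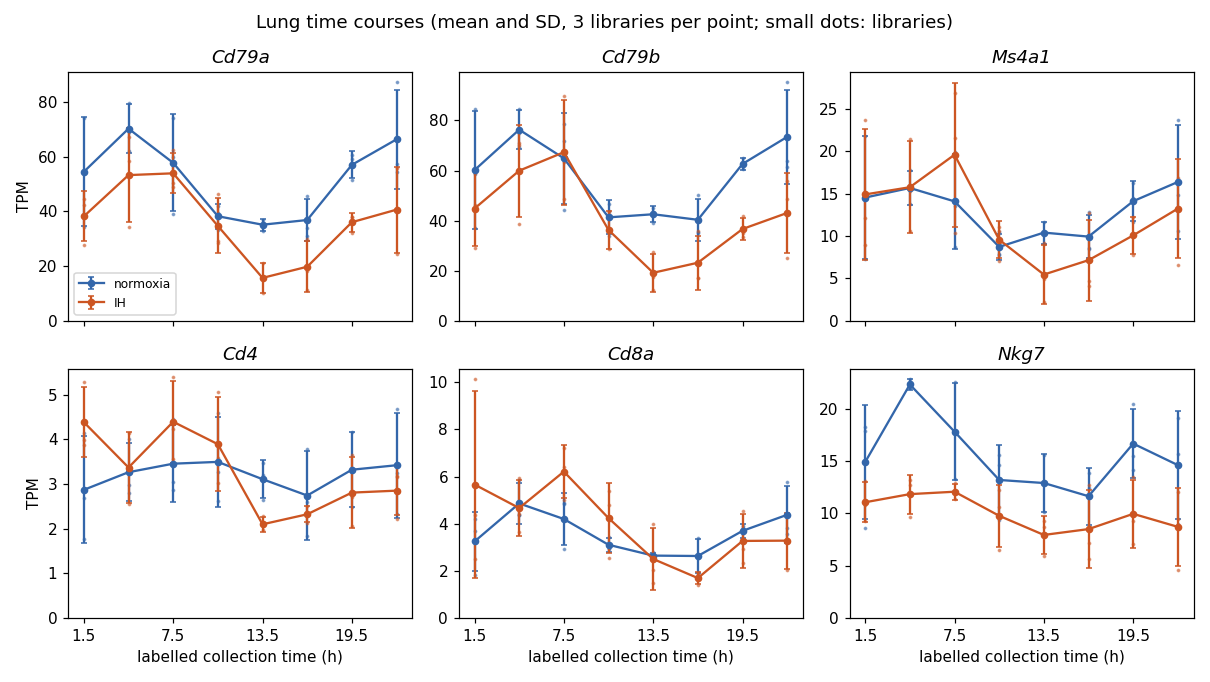
TPM of Cd79a, Cd79b, Ms4a1, Cd4, Cd8a and Nkg7 in the lung against the labelled collection time in hours, as mean and SD of 3 libraries per time point with the single libraries as small dots, normoxia in blue and IH in orange. Cd79a and Nkg7 run lower after IH at all 8 time points, and the B cell genes are lowest at 13:30 and 16:30 after IH.

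The curves of IH and normoxia were then compared directly. In the lung 0 of 15426 genes passed in limma (0 of the 9), and the 9 genes had an adjusted p of 1.00 each. Before adjustment, 3 of the 9 had p of 0.05 or less: Cd4 (p = 0.035, with amplitudes of 0.06 in normoxia and 0.37 after IH), Cd79b (p = 0.0386; 0.43 and 0.69) and Cd8a (p = 0.0387; 0.29 and 0.61). A rhythm present after IH and not in normoxia was therefore not shown to differ for Cd4 and Cd8a. Among the related lists, 13 of 20 B cell genes were rhythmic in normoxia and 15 of 20 after IH, against 9.49% and 4.7% of all genes. Each of these B cell genes had its peak between hours 21 and 9, a window that holds the peaks of the 3 B cell markers given above. Of all genes, 4.36% and 2.5% were rhythmic with a peak there. These were 672 of the 1464 rhythmic genes in normoxia and 386 of the 725 after IH. The largest amplitude of the B cell list was that of Pax5, the B cell lineage factor, at 0.58 and 0.94. Of the 22 T cell genes 1 was rhythmic in normoxia and 10 after IH, among them Cd8b1, the partner chain of Cd8a (amplitude 0.61, peak at hour 5.38). In the other tissues 1 of the genes tested was rhythmic: Cd79b in the normoxia liver (amplitude 0.34, SE 0.098, peak at hour 3.60, adjusted p = 0.0459), where 18.3% of all genes passed. Elsewhere 0 of the genes tested, the same genes as for the change after IH, passed in limma. The share of all genes was 0.673% and 4.23% in the heart (normoxia and IH), 2.95% in the liver after IH, and 22.2% and 5.94% in the kidney. It was 6.85% and 9.5% in muscle, and 0% and 0.0134% in the cerebellum. The rhythm of the genes tested also differed between IH and normoxia in 0 cases in these 5 tissues (0.0078% of all genes in muscle and 0% in the other 4). Before adjustment 1 was at p = 0.05 or less, Nkg7 in muscle (p = 0.0267). In the heart, the Cd3 genes, Cd4, Cd8a and Nkg7 were tested only through the libraries with thymocyte transcripts. Cd3d in the cerebellum was tested only through those with heart transcripts. For these genes the fits do not show whether a rhythm was absent.

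Across the 24 normoxia lung libraries the B cell genes varied together. These libraries were taken at different times of day, and neither time of day nor composition was held fixed in the correlations. Cd79a and Cd79b had a Pearson's r of 0.99, and Ms4a1 followed them with 0.87 and 0.89. Cd3g correlated with Cd3d (0.78) and Cd8a (0.88), whereas Cd3d and Cd3e had an r of 0.28 and Cd4 and Cd8a of 0.29. Cd79a and Cd8a, of different lineages, reached 0.88. Genes with the highest r were taken in the tissue of the highest mean. For Cd79a these were Cd79b, H2-DMb2 and Ighd (0.986, 0.980 and 0.974), and for Cd79b they were Cd79a, H2-DMb2 and Fcmr (0.986, 0.976 and 0.972). Ms4a1 was closest to Pou2af1 (0.953), Cxcr5 (0.918) and Tnfrsf13b (0.915), and Nkg7 to Gzma (0.948), Klrc2 (0.918) and Cst7 (0.910). For the T cell genes the rule led to the heart, where the correlations, between 0.993 and 0.999, rest on the 2 normoxia libraries with thymocyte transcripts. These genes were Rag1, Themis and Dntt for Cd8a, Rag2, Themis and Ccr9 for Cd4, Cd5, Cd8a and Trdc for Cd3e, Sh2d2a, Tcf7 and Cd8b1 for Cd3g, and Rhoh, Sla2 and Trbv23 for Cd3d. In the lung, taken afterward as the tissue of the highest median, the closest genes were Ms4a4b, Gm8369 and Cd8b1 for Cd8a (each 0.92), Cd96 for Cd4 (0.85), Ms4a6b for Cd3e (0.90), Ms4a4b for Cd3g (0.93) and Lat for Cd3d (0.92).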

How the data were processed

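Poly(A) RNA libraries (NEBNext Ultra II Directional) of 6 tissues were sequenced, and the authors deposited TPM per gene symbol, which they obtained with kallisto from Ensembl transcripts; the submitters' processing notes also name bcl2fastq, FastQC 0.11.3, DESeq2 and the build mm10. The authors tested estimated counts with DESeq2; the deposited TPM values carry no depth, so no count model was used. Columns for the 288 libraries were matched to the labels by tissue, treatment, time and replicate. The 9 genes and the 18 marker lists were chosen with earlier results of these data known.

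TPM were scaled by the median of ratios within each fit, and log2(TPM + 0.5) was fitted in limma 3.58.1 (trend; R 4.3.3) where a gene averaged 1 TPM or more over the 48 libraries of a tissue, with Benjamini-Hochberg adjustment over all genes tested. Treatment was the only term; the methods name the comparison of mean 24-hour levels but no model formula. Fold changes on this scale understate the change of low genes. Calls used an adjusted p of 0.05, with 1.5-fold stated where used. Rhythms were fitted as a 24-hour cosine and sine with a moderated F test, and differences in rhythm, differences between tissues and levels between tissues in the same way. In the contrasts of tissues, genes needed a mean of 1 TPM in at least 1 tissue. Named beyond the 9 genes were, by rule, the 3 genes of the highest r with each and the largest rise and fall of each list. Outside this rule, Pax5 and Cd8b1 were named for the largest rhythm amplitude of their lists (Cd8b1 after IH). Cd22 was picked after its values were seen, Dntt, Myh6 and Alb describe single libraries, and Scgb1a1 describes lung transcripts in the heart. The alternatives comprised 43 fixed settings and further ones chosen after seeing the data, which left out the libraries named in the text or corrected for transcript length and GC content. The functions were tested on simulated data. No 2 libraries held identical values (0 pairs), and TPM summed to between 989211 and 999188 per library. Promoter sequences are from RefSeq (GRCm38.p6), positions from GENCODE M21.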

Additional observations from a re-analysis of the deposited data

Results flagged for a closer look

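The change after IH in the lung differed from that in another tissue for 7 of 15 pairs of gene and tissue tested (limma interaction, all libraries, adjusted over all genes), while 50.1% to 62.9% of all genes passed in these contrasts, so the count is not a result about these genes. For Cd79b the lung change minus the other was -0.71 against the heart (SE 0.268, adjusted p = 0.0165), -0.79 against the liver (SE 0.244, 0.00477), -0.73 against the kidney (SE 0.202, 0.00124) and -0.80 against muscle (SE 0.277, 0.0116), all on the log2 scale. For Nkg7 it was -0.58 against the heart (SE 0.236, adjusted p = 0.0273) and -0.72 against muscle (SE 0.201, 0.00165). For Cd79a it was -0.65 against the heart (SE 0.275, adjusted p = 0.035). Without the heart libraries with thymocyte transcripts, the difference from the heart was -0.70 for Cd79a (adjusted p = 0.0257) and -0.80 for Cd79b (0.00675), and Nkg7 was no longer tested. Without the liver library that resembled the heart, Cd79b against the liver gave -0.73 (adjusted p = 0.00703). In TPM as deposited only Nkg7 against muscle still passed.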

How the results depend on the processing

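The count of 6 genes lower in the lung lay between 4 and 8 under the alternatives, other than with the libraries of number 1 alone or number 2 alone, which gave 3 each (fewer samples). The log2 change of Cd3d turned positive with number 1 alone (0.19), as did its difference in mean TPM (0.0072 TPM). Rhythms depended most on the setting. In the normoxia lung, 3 genes became 0 with JTK and 0 to 4 with a replicate left out. After IH, 5 became 1 with JTK, 3 on the linear TPM scale, 0 without the 8 libraries with over 26000 genes detected, and 0 without any one replicate. In the normoxia liver, 1 became 0 on the linear scale and in log2 of TPM as deposited, 2 with a maximum of at least 1 TPM as the filter, and 0 without any one replicate. In the normoxia kidney, 0 became 1 with JTK and 1 with that filter. With a replicate left out, muscle after IH gave 0 to 1, and the genes that passed between IH and normoxia in the cerebellum were 0 to 2, the latter without replicate 3. The 7 differences between lung and other tissues became 1 in TPM as deposited and 1 to 6 with a replicate left out. The cause was not tested. The share of all genes that passed under each of these settings is not given here, so the counts show only how the calls varied.

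Same-numbered libraries of IH and normoxia were not treated as paired in the main fits. The rule asked that every pair of a tissue have a correlation of deviations over 0.1, which no tissue met. That rule is so strict that missing it does not show the pairs to be unrelated. Of 24 pairs, 5 were over 0.1 in the lung (median -0.14), 8 in the heart, 6 in the kidney and 7 in the cerebellum. In muscle 12 were (median 0.10), and in the liver 16 (median 0.22). A replicate block gave 6 (within time points) or 7 (over the course) genes lower in the lung, 8 rhythmic genes in the lung after IH in place of 5, 1 in the kidney after IH in place of 0, and 7 differences between tissues. For the replicate block, too, no share of all genes is given here. TPM carry no depth, so the precision of low values could not be set.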

Other observations

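Some lists related to lymphocytes held changed genes in other tissues after IH, given here with the share of all genes that passed in either direction. For the leukocyte genes in the liver and the homing and B cell genes in the heart, the share that passed did not exceed that of all genes. Those counts are therefore not results about these lists. In the kidney, where 20% of all genes passed, 4 of 10 genes shared by all leukocytes were lower and 0 higher, led by the integrin gene Itgb2 (log2 change -0.29). In the liver, where 25.2% passed, 2 of 10 such genes were higher, led by Arhgdib (0.61), and of 10 myeloid genes tested 5 were higher and 1 lower. In muscle, where 10.9% passed, 1 of 6 B cell genes tested was lower, Cd74, the invariant chain of MHC class II (-0.43), 1 was higher, the transcription factor gene Ebf1 (0.22), and 4 did not pass. In the heart, where 43.8% passed, 4 of 12 homing genes tested were higher, led by the adhesion molecule Vcam1 (0.36), and so were 5 of 8 endothelial genes, with 1 lower and a median of 0.36. Of 10 B cell genes tested there, 2 were lower, led by Cd72 (-0.39), 1 was higher, Ebf1 (0.20), and 7 did not pass. The erythroid and platelet genes were higher for 5 of 7 tested in the liver and 5 of 8 in the kidney, with medians of 0.75 and 0.74.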
